A study of Mus musculus with 16 samples.

Results

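The grainyhead-like transcription factors Grhl1, Grhl2 and Grhl3, the zinc finger repressors Ovol1 and Ovol2 and the splicing regulators Esrp1 and Esrp2 are regulators of epithelial identity. These 7 genes, of 21631 annotated protein-coding genes of chromosomes other than Y, were taken as a list chosen with earlier results of these data known. H3K27me3 peaks were collected in a window spanning each gene body and 2 kb to each side (mm10). H3K27me3 is the repressive histone mark written by EZH2 within Polycomb complex PRC2. It was profiled by ChIPmentation, in which immunoprecipitated chromatin is tagged with sequencing adapters by a transposase while still bound to the beads. The dnTCF4 group comprised 4 libraries of CCN6KOT cells transduced with a lentivirus for dnTCF4, a dominant negative form of the factor through which beta-catenin activates transcription. The control group comprised 4 libraries of CCN6KOT cells given a control lentivirus (PPGS in the titles). Both groups were puromycin-selected mouse breast tumour cells of spindle metaplastic type from a CCN6 knockout, so no library represents cells with CCN6. The labels call these cells primary in one place and a cell line in another, and do not say whether the 4 libraries of a group came from separate cultures, so the p-values rest on a spread that may be purely technical. The 8 IgG libraries of the series were not analysed here.

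GRHL proteins bind the promoters and enhancers of junction and adhesion genes such as Cdh1 and keep them active, with GRHL2 the best known in epithelial and carcinoma cells. OVOL proteins repress mesenchymal genes, among them Zeb1, and ZEB and SNAI factors in turn repress epithelial genes through E-boxes. ESRP proteins bind RNA and maintain the epithelial splice forms of transcripts such as Fgfr2 and Cd44. Spindle metaplastic breast carcinoma is a tumour of mesenchymal appearance. PRC2 is usually recruited to CpG-rich promoters of inactive developmental genes.

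The libraries differed far more in the length of their peak lists than by group. The dnTCF4 libraries held 191 to 21492 peaks and the control libraries 426 to 54070, called by the authors in each library. Peaks covered 0.129 to 16.6 Mb in dnTCF4 libraries and 0.242 to 52.7 Mb in control libraries. Read depth is unknown from such lists, and the lack of a peak is not evidence that the mark was lacking. In bulk chromatin, fewer cells carrying the mark and less mark per cell cannot be told apart. The series holds no expression data, so the labelled cell type was set only against peaks at marker genes, described with the gene lists.

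The promoter sequences are shown first because none of these promoters carried a peak in any of the 8 libraries, although peaks lay close to the Grhl3 and Ovol2 starts. RefSeq promoters (GRCm38.p6, 250 bases before to 50 after an annotated start) matched 3 of the 7 genes by gene ID. All are given 5′ to 3′ on the strand of the gene, with CpG dinucleotides in capitals.
Grhl3, chr4:135573583-135573882, minus strand: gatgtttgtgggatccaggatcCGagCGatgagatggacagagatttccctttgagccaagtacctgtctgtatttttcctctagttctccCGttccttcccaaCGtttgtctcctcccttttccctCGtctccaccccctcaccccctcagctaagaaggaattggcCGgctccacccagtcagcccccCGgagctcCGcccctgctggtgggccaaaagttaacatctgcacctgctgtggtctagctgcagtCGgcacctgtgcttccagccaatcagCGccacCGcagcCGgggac
Ovol2, chr2:144331313-144331612, minus strand: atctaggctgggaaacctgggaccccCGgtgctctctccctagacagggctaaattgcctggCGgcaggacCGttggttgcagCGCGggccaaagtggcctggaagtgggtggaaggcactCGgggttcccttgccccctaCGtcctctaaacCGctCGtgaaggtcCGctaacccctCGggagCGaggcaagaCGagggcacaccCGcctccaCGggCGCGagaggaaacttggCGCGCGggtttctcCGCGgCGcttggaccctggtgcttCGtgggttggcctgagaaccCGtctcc
Grhl1, chr12:24572037-24572336, plus strand: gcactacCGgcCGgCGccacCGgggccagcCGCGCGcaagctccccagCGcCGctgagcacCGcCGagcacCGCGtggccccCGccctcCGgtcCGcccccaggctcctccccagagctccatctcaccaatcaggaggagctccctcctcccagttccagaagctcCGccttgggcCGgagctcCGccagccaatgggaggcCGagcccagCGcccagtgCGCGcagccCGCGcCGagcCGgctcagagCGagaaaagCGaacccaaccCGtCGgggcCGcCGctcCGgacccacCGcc

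The promoters of Grhl1, Ovol2 and Grhl3 held 35, 25 and 12 CpG dinucleotides, against a median of 7 over 32807 promoters of 300 bases. Grhl1, the member with the most CpG of these, had no peak anywhere in its window. A second listed Grhl1 promoter (chr12:24580469-24580768) held 0 CpG. The letters CACCTG, the E-box bound by ZEB and SNAI factors, were searched on both strands as CACCTG or CAGGTG. They occurred 2 times in the Grhl3 promoter, starting at positions 232 and 259 counted from its 5′ end, and in none of the other listed promoters of these genes. Of all promoters, 20.2% held this motif. The GRHL motif AACCGGTT (its own reverse complement, held by 0.146% of promoters), the OVOL motif CCGTTA or TAACGG (2.75%) and the TCF/LEF motif CTTTGAT or ATCAAAG (3.73%) were in none of the promoters listed for these 3 genes.

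H3K27me3 peaks lay at 5 of the 7 regulators, namely Grhl2, Grhl3, Ovol1, Ovol2 and Esrp1, and at neither Grhl1 nor Esrp2 in any library. A peak in at least 1 library was found for 21.4% of all protein-coding genes. Because the 7 genes were chosen with earlier results of these data known, this and the following shares only describe them and test no excess. In dnTCF4 libraries 1 to 4, 5, 0, 4 and 1 of the 7 genes had a peak, where 13.7%, 0.254%, 5.13% and 2.41% of all protein-coding genes did. In control libraries 1 to 4, 0, 1, 5 and 5 had a peak, where 0.675%, 1.06%, 20.1% and 12.5% of all genes did. The same 5 genes were marked in dnTCF4 1, control 3 and control 4, and 10.1% of all genes were marked in these 3 libraries. All of these except Grhl3, 4 genes, had peaks in at least 2 dnTCF4 and 2 control libraries, which 5.02% of all genes did, and thus in at least 4 of 8 libraries, which 5.18% did. The windows of these genes are not of average length: that of Grhl2 spans 135 kb, and only 7.98% of protein-coding genes have a longer one, while the median over all genes is 21.3 kb. The share of a window covered by peaks, also given below, is a fraction of its length. Counts of genes or libraries with a peak make no allowance for length. Ranks of the share over all genes place any gene with a peak above every gene without one, so length can still enter them.

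**Figure D1:**
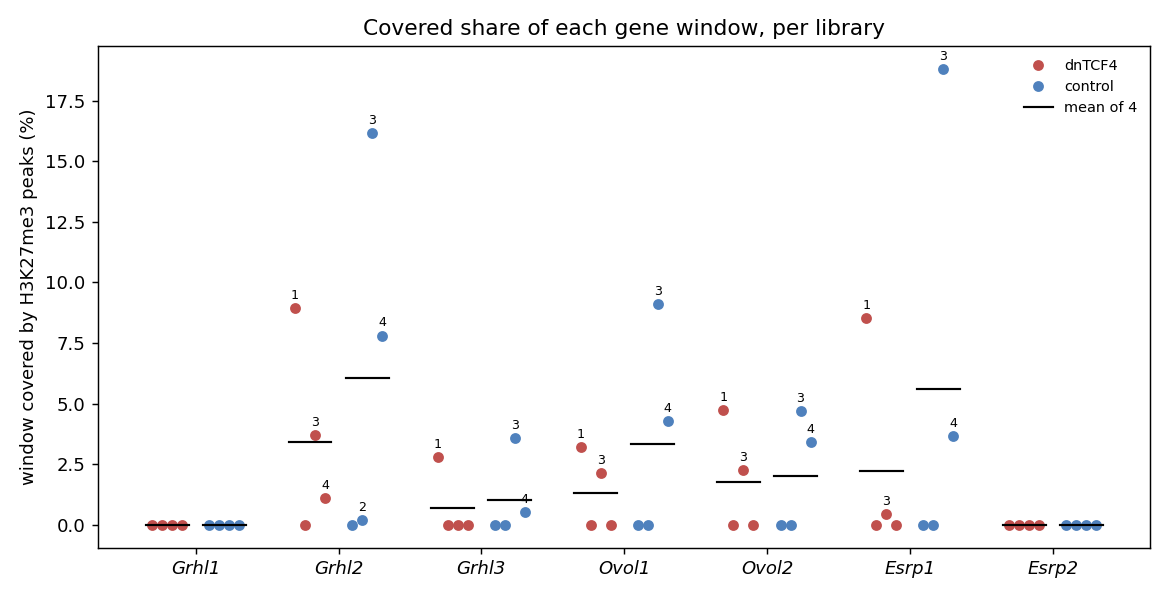
Percentage of each gene window (gene body and 2 kb to each side) covered by H3K27me3 peaks, with dnTCF4 libraries left of control libraries. Points are single libraries with their replicate number where the value is above 0, and lines are means of 4. Grhl2 and Esrp1 reach 16.2% and 18.8% in control 3, and Grhl1 and Esrp2 stay at 0 in all 8 libraries.

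Grhl2, which sustains E-cadherin and claudin expression in epithelia, was the regulator marked in most libraries and had 43 of the 89 peaks found at the 7 genes. The gene lies at chr15:37232821-37363569. Peaks covered 8.92%, 0%, 3.71% and 1.10% of its window in dnTCF4 libraries 1 to 4. They covered 0%, 0.197%, 16.2% and 7.81% in control libraries 1 to 4. Control 3 was the highest and the groups overlapped, with 3 marked libraries in each. A peak in at least 6 of 8 libraries, as at Grhl2, was found for 0.962% of protein-coding genes. By covered share, Grhl2 ranked among the top 3.38%, 1.47% and 1.12% of all protein-coding genes in dnTCF4 1, dnTCF4 3 and dnTCF4 4, and among the top 0.915%, 5.04% and 3.30% in control 2, control 3 and control 4. Among genes with a peak, 730 of 2962, 317 of 1109 and 242 of 521 had a higher share in dnTCF4 1, dnTCF4 3 and dnTCF4 4. In control 2, control 3 and control 4, 197 of 229, 1090 of 4344 and 712 of 2696 did. Relative to the mean share of all protein-coding genes, the Grhl2 share was 8.82, 17.3 and 19.3 times as high in dnTCF4 1, dnTCF4 3 and dnTCF4 4, and 7.99, 6.71 and 9.21 times as high in control 2, control 3 and control 4. That mean includes the genes without a peak, which were most genes in every library.

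The peaks at Grhl2 clustered at 3 places. At the lower-coordinate end of the gene, all 5 libraries with at least 1000 peaks had a peak over the same 724 bases, chr15:37231300-37232023, which lie outside the gene body and reach into the long noncoding RNA gene Gm16136 (37231921 to 37233159). The peak there was 2080, 1349 and 724 bp wide in dnTCF4 1, dnTCF4 3 and dnTCF4 4, and 5216 and 2265 bp wide in control 3 and control 4. Further in, between 1.89 and 5.89 kb from that end, a domain was marked in 6 libraries, 3 of each group. It held a peak of 3450 bp in dnTCF4 1, and peaks of 3947 and 3881 bp in control 3 and control 4. In dnTCF4 3 it was broken into 3 peaks of 741, 802 and 609 bp, and dnTCF4 4 and control 2 had 1 peak of 757 and 266 bp there. Apart from the last few bases of the control 3 peak that crosses the end, no library had a peak between the end of the gene and this domain. The short control 2 list thus placed its only peak at the 7 genes inside the domain of the longer lists.

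The authors' fold enrichment in this domain was 4.90 in dnTCF4 1 and 4.00 in control 3, at the 99.2 percentile of either list. The −log10 q values of these 2 peaks were 3.79 and 3.61. Fold enrichment in the domain ranked lower elsewhere, at the 36.3 to 79.8 percentiles in dnTCF4 3 and the 40.5 percentile in dnTCF4 4. It was at the 50.95 and 91.0 percentiles in control 2 and control 4. In dnTCF4 4 and control 2 the −log10 q at Grhl2 reached 1.71 and 1.58, at the 55.5 and 22.9 percentiles of those lists. These percentiles compare single peaks within lists of very different length. Most remaining peaks lay 61.6 to 93.0 kb into the gene. Within that stretch, the regions from 82.6 to 85.6 kb and from 91.1 to 93.0 kb were marked in dnTCF4 1, dnTCF4 3, control 3 and control 4. A region at 6.49 kb was shared by dnTCF4 1 and control 4 and one at 17.9 kb by control 3 and control 4, and single peaks began at 14.9 and 43.1 kb in control 3 and at 100.9 kb in dnTCF4 1. Of 16 merged regions in the window, 9 were found in at least 2 libraries and 6 in control 3 alone.

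**Figure D2:**
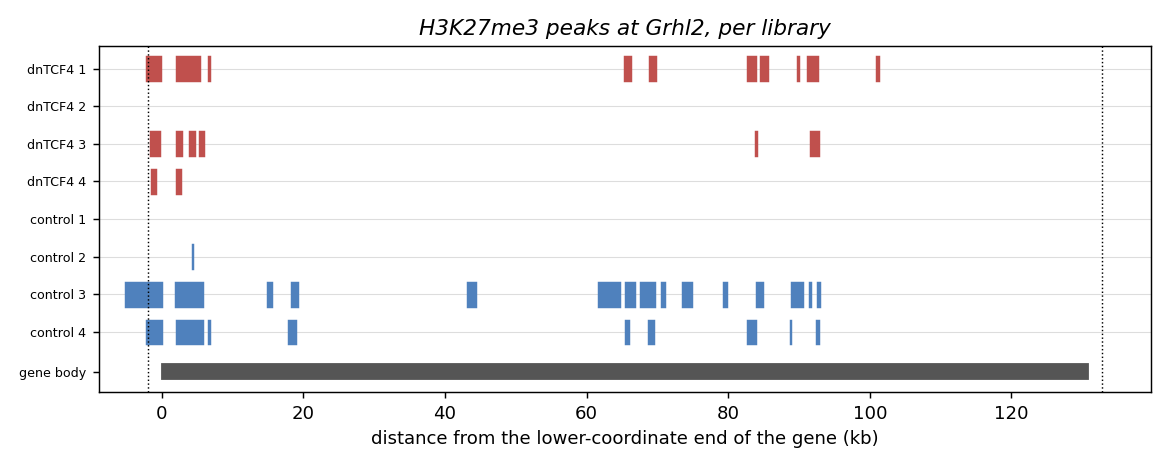
H3K27me3 peaks (boxes to scale) at Grhl2 in each library against the distance in kb from the lower-coordinate end of the gene, dnTCF4 libraries above control libraries; the grey bar is the gene body and dotted lines are the window edges. Peaks of 5 libraries align just outside the gene and those of 6 libraries between 1.89 and 5.89 kb inside it.

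Grhl3, a regulator of the skin barrier and of neural tube closure, was marked more weakly. The gene lies at chr4:135541887-135573632. Its window was covered to 2.80% in dnTCF4 1 and to 0% in the other dnTCF4 libraries. The share was 0%, 0%, 3.59% and 0.529% in control libraries 1 to 4. Only the 3 longest lists marked it. Its share was 2.77 times the mean of all protein-coding genes in dnTCF4 1 and 1.49 times in control 3. In control 4 it was below that mean, at 0.624 times. The 7 peaks were 158 to 844 bp wide and all lay inside the gene. A region of 198 bp, chr4:135568737-135568934, was shared by dnTCF4 1, control 3 and control 4, whose peaks ended 4698, 4702 and 4702 bp from the listed start. The peaks nearest to that start ended 638 bp from it in dnTCF4 1 and 615 bp from it in control 3, so the promoter printed above lay beyond them. The most significant peak of Grhl3, in control 3, had a fold enrichment of 3.91 and a −log10 q of 3.01, at the 97.7 percentile of that list.

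Grhl1, which acts in hair follicle and epidermal adhesion, lies at chr12:24572232-24617391 and had no peak in its window of 49.2 kb in any library. Its nearest protein-coding neighbours, Taf1b and Klf11, had none either. Chromosome 12 as a whole was sparsely covered, by 0.0997% in dnTCF4 1, 0.399% in control 3 and 0.0515% in control 4. Whether peaks at Grhl1 were missing for want of the mark or of detection was not tested.

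Ovol2, which restrains epithelial-to-mesenchymal transition in mammary and other epithelia, lies at chr2:144305175-144332080. Its covered share was 4.72%, 0%, 2.278% and 0% in dnTCF4 libraries 1 to 4. In control libraries 1 to 4 it was 0%, 0%, 4.68% and 3.42%. The highest values of the groups were nearly equal. Relative to the mean share of all protein-coding genes, the Ovol2 share was 4.67 and 10.6 times as high in dnTCF4 1 and dnTCF4 3. In control 3 and control 4 it was 1.94 and 4.04 times as high. The widest peaks lay beyond the higher-coordinate end, from 1.43 kb past it, with widths of 1779 bp in dnTCF4 1 and 1832 and 1741 bp in control 3 and control 4. The −log10 q of this peak was 3.11 in dnTCF4 1, 3.20 in control 3 and 1.42 in control 4, at the 97.2, 98.2 and 42.1 percentiles of their lists. Nearer the listed start of the gene, a region of 443 bp, chr2:144330156-144330598, was marked in dnTCF4 1, control 3 and control 4, the peaks ending 789, 764 and 950 bp from that start. On the other side, peaks of dnTCF4 1 and control 3 began 1030 and 1023 bp from it. They lay just outside the annotated gene body, from 0.305 kb past its higher-coordinate end. The CpG-rich promoter printed above thus lay in a gap between flanking peaks in dnTCF4 1 and control 3. Its listed start, at position 144331362, lies inside the annotated gene body. No promoter was listed at the higher-coordinate end of that body, so none was examined there. A region of 346 bp, chr2:144328558-144328903, was marked in dnTCF4 1 and dnTCF4 3 and in no control library. A region of 219 bp was marked in control 3 alone, and one of 411 bp in dnTCF4 3 and control 4.

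Ovol1, a regulator of epidermal and germ cell differentiation, lies at chr19:5549137-5560575. The covered share was 3.20%, 0%, 2.12% and 0% in dnTCF4 libraries 1 to 4. It was 0%, 0%, 9.11% and 4.27% in control libraries 1 to 4. Relative to the mean share of all protein-coding genes, the Ovol1 share was 3.16 and 9.87 times as high in dnTCF4 1 and dnTCF4 3. In control 3 and control 4 it was 3.79 and 5.04 times as high. The same 4 libraries marked Ovol1 and Ovol2. The region shared by all 4, with a core of 327 bp at chr19:5561814-5562140, lay 1.14 kb outside the Ovol1 body and inside the body of Ap5b1, an adaptor protein subunit gene that overlaps the end of Ovol1. Inside Ovol1 itself, only control 3 and control 4 had a peak, of 552 and 222 bp. Without the peaks inside Ap5b1, an alternative chosen after seeing the data, Ovol1 was marked in 0 dnTCF4 and 2 control libraries (Fisher's exact test p = 0.429), and its difference in covered share was -1.253 percentage points (exact permutation p = 0.429) instead of -2.02.

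Esrp1, the epithelial splicing factor best known for the epithelial form of Fgfr2, lies at chr4:11331933-11386783 and was marked along its body. Peaks covered 8.53%, 0%, 0.432% and 0% of its window in dnTCF4 libraries 1 to 4. They covered 0%, 0%, 18.8% and 3.66% in control libraries 1 to 4. The share in control 3 was the highest of any of the 7 genes in any library. Relative to the mean share of all protein-coding genes, the Esrp1 share was 8.43 and 2.01 times as high in dnTCF4 1 and dnTCF4 3. In control 3 and control 4 it was 7.81 and 4.32 times as high. All 20 peaks lay inside the gene body. The widest, of 4429 bp in control 3, lay in a region from 19.2 to 23.8 kb above the lower-coordinate end, where dnTCF4 1 had peaks of 1183 and 987 bp and control 4 had a peak of 358 bp. Near the other end, a region of 2961 bp, chr4:11382073-11385033, was marked in dnTCF4 1, dnTCF4 3, control 3 and control 4. There control 4 had the most significant peak of the gene, 373 bp wide, with a fold enrichment of 4.50 and a −log10 q of 3.41, at the 98.5 percentile of its list. Of 11 merged regions, 4 were found in at least 2 libraries and 6 in control 3 alone.

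Esrp2, the paralog that shares most targets of Esrp1, lies at chr8:106130319-106137193. It had no peak in its window of 10.9 kb, nor within 50 kb beyond the window on either side, in any library. Nfatc3, which overlaps its end, and its neighbours Dus2 and Pla2g15 had none in any library. Chromosome 8 as a whole was covered by 0.431% in dnTCF4 1, 2.70% in control 3 and 0.887% in control 4.

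**Figure D3:**
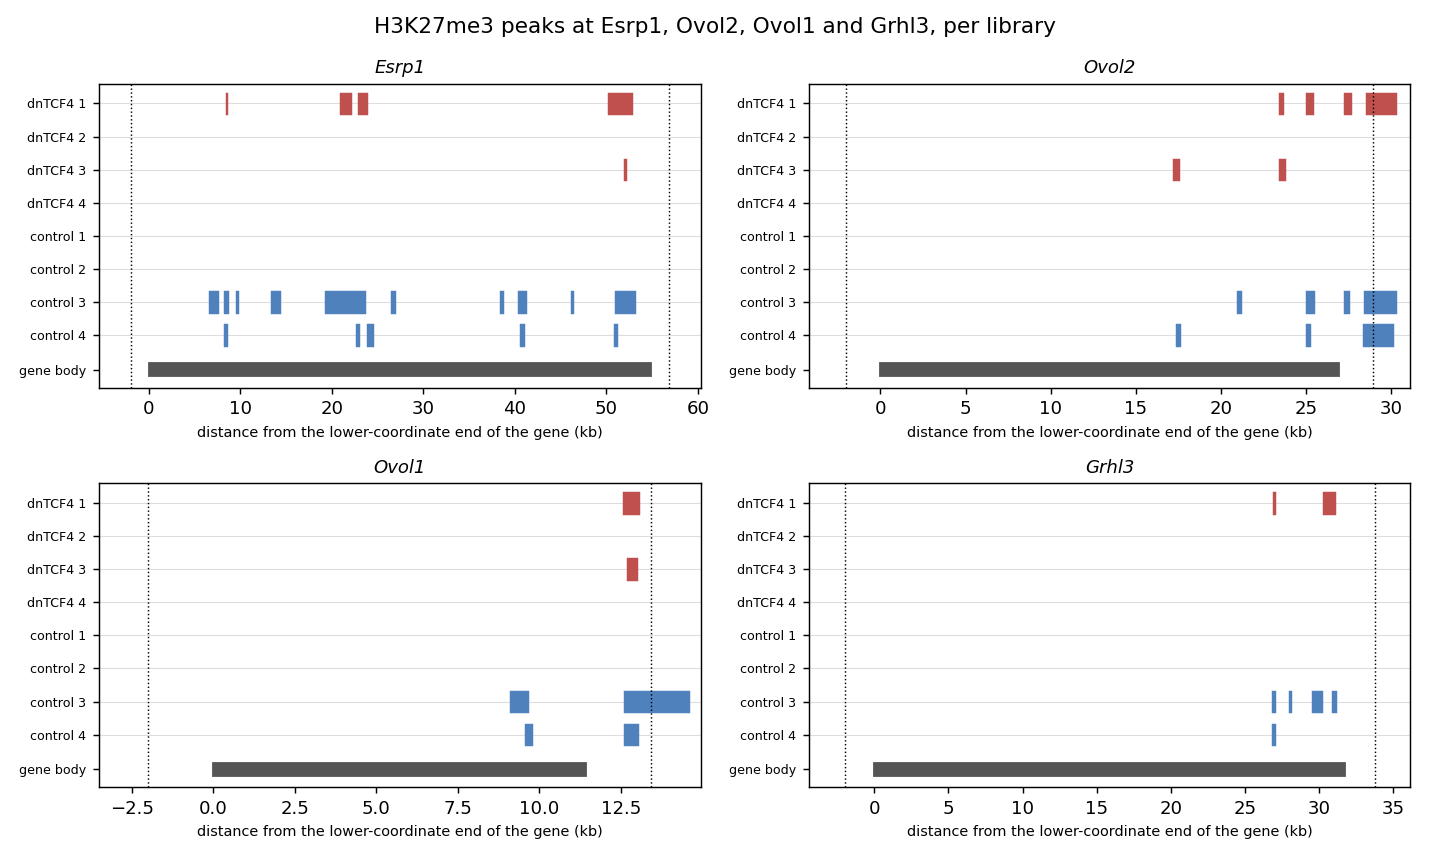
H3K27me3 peaks (boxes to scale) at Esrp1, Ovol2, Ovol1 and Grhl3 in each library against the distance in kb from the lower-coordinate end of the gene, dnTCF4 libraries above control libraries; grey bars are gene bodies and dotted lines the window edges. Esrp1 is marked along its body in control 3, while the peaks of Ovol2, Ovol1 and Grhl3 lie toward or beyond the higher-coordinate end.

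The peaks at these genes were close to their lists in median fold enrichment. Of 89 peaks, 72 overlapped a peak of another library. This held for 20 of 21 peaks in dnTCF4 1, 10 of 10 in dnTCF4 3 and 2 of 2 in dnTCF4 4, and for 1 of 1 in control 2, 20 of 35 in control 3 and 19 of 20 in control 4. Over the whole lists, 83.2%, 97.6% and 99.2% of peaks overlapped a peak of another library in dnTCF4 1, dnTCF4 3 and dnTCF4 4, and 100%, 40.3% and 84.1% in control 2, control 3 and control 4. Median widths at the 7 genes were 899, 490 and 740.5 bp in dnTCF4 1, dnTCF4 3 and dnTCF4 4, where the whole lists had medians of 485, 400 and 307 bp. In control 2, control 3 and control 4 they were 266, 693 and 389.5 bp, where the whole lists had 320.5, 595 and 471 bp. Median fold enrichment at the genes was 4.17 in dnTCF4 3, against 4.05 over its whole list, and 3.07 in control 3, against 3.01.

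Covered share did not pass the test of a difference between dnTCF4 and control cells at any of the 5 marked genes. Mean shares were 3.43 ± 3.98% in dnTCF4 and 6.04 ± 7.66% in control libraries for Grhl2 (difference -2.61 percentage points), and 2.24 ± 4.20% and 5.62 ± 8.96% for Esrp1 (difference -3.38; SD, n = 4 each). For Ovol1 they were 1.33 ± 1.60% in dnTCF4 and 3.34 ± 4.34% in control libraries, for Ovol2 1.75 ± 2.25% and 2.02 ± 2.39%, and for Grhl3 0.701 ± 1.40% and 1.03 ± 1.73% (SD, n = 4 each). Two-sided exact permutation tests over the 70 assignments of 8 libraries to 4 and 4 gave p = 0.686 for Grhl2, 0.714 for Esrp1, 0.543 for Ovol1, 1 for Ovol2 and 0.714 for Grhl3, each with an adjusted p of 1 over the 4626 genes with a peak. The smallest p these assignments allow is 0.0286, and the share of genes called was 0% after adjustment and 0.0216% at an unadjusted p under 0.05, a single gene, Nhsl2, named after its value was seen. Fisher's exact test on the number of marked libraries gave p = 1 for each of the 5 genes and called 0% of genes, adjusted or not. Neither test could make a call after adjustment. The smallest p needs groups that separate completely, and dnTCF4 2 and control 1 marked only 55 and 146 genes. Far more of the 4626 genes would have to reach that p for it to pass. Neither library marked any of the 7 genes, so none of them could reach it.

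The control mean was the higher one at all 5 genes, as it was at 88.8% of the 4626 genes tested. The median difference was -2.02 percentage points over the 5 genes with a peak and -1.03 over all genes tested. Without control 3, the longest list, the difference turned to 0.764 percentage points for Grhl2, 1.02 for Esrp1, 0.610 for Ovol2 and 0.525 for Grhl3 (exact permutation p = 0.743, 0.886, 0.8286 and 1), and was -0.0934 for Ovol1. With lists of equal length (the 1838 most significant peaks of each of 5 libraries), the differences were 1.14 for Grhl2 (exact permutation p = 0.5), 0.00755 for Ovol2 (p = 1), -0.787 for Grhl3 (p = 0.4), -0.317 for Esrp1 (p = 0.4) and 0 for Ovol1, which had no peak left, and the smallest p possible was 0.1. Between libraries of similar list length, the share in dnTCF4 1 exceeded that in control 4 for Grhl2, Grhl3, Ovol2 and Esrp1 but not for Ovol1. It did so for 44.2% of the 4626 genes tested. Genes with a peak in neither library are counted there as not exceeding. All 5 regulators had a peak in both libraries, so this percentage is not a like background for them.

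Marking at the genes could be set against their surroundings in the longest lists. Esrp1 stood on a sparsely covered chromosome: peaks covered 8.53% of its window and 0.234% of chromosome 4 in dnTCF4 1, a ratio of 36.5. The ratio was 28.6 in control 3 and 31.6 in control 4. No peak lay in the 50 kb below the Esrp1 window in these 3 libraries, and its lower neighbour Dpy19l4 and its upper neighbour Virma had none. The 50 kb above it were covered to 2.32% in dnTCF4 1, 11.6% in control 3 and 2.63% in control 4.

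Grhl2 lay on chromosome 15, of which 2.26%, 5.46% and 2.48% was covered in dnTCF4 1, control 3 and control 4, and the ratio of gene to chromosome was 3.95, 2.96 and 3.14. Its mark extended below the gene, where 50 kb were covered to 8.14%, 21.6% and 4.61% in these libraries, but not above it, where 0% was covered in all 3. Ncald, which encodes a neuronal calcium sensor and begins 2.61 kb above Grhl2, was covered to 2.49% in dnTCF4 1 and to 8.64% and 4.19% in control 3 and control 4. The nearest protein-coding gene below, LOC115488529, had no peak in any library. Around Ovol2 the 50 kb above the window were covered more than the window itself, to 9.40% in dnTCF4 1, 12.1% in control 3 and 6.31% in control 4. The nearest protein-coding genes, Mgme1 below and Pet117 above, had no peak in any library. Ap5b1, which overlaps the Ovol1 window, was covered to 4.53% in dnTCF4 1, 17.0% in control 3 and 5.52% in control 4. In each of these libraries that was more than Ovol1 itself. The next neighbours of Ovol1, Snx32 and Rnaseh2c, had no peak. The 50 kb below the Ovol1 window held no peak, and those above were covered to 0.372%, 2.31% and 0.340% in dnTCF4 1, control 3 and control 4. Of the neighbours of Grhl3, the interferon lambda receptor gene Ifnlr1 was covered more than Grhl3 itself, to 8.67% in dnTCF4 1 and to 12.8% and 3.78% in control 3 and control 4. Stpg1, on the other side, was covered to 1.27% in dnTCF4 1 and 3.74% in control 3.

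**Figure D4:**
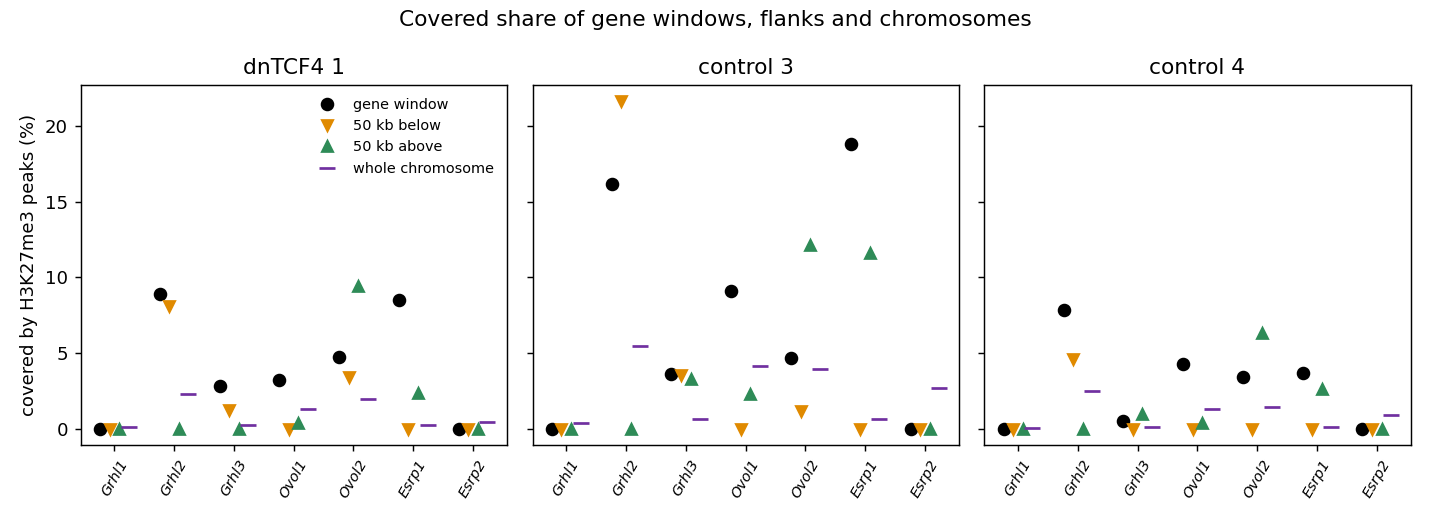
Percentage covered by H3K27me3 peaks of each gene window, of the 50 kb below and above it, and of its whole chromosome, in the 3 longest peak lists. In dnTCF4 1 the Esrp1 window (8.53%) lies far above chromosome 4 (0.234%), and in control 3 the 50 kb below Grhl2 (21.6%) exceed its window (16.2%).

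Genes of similar pattern were ranked by likeness, which was the mean absolute difference in covered share over the 8 libraries, among genes marked in the same libraries. Grhl2 was closest to Abcb11 (0.638 percentage points), Elapor2 (1.02) and Pde11a (1.11), of 77 genes marked in the same 6 libraries. The shares of Elapor2 and Pde11a in dnTCF4 1, 4.93% and 4.95%, were well below that of Grhl2. Abcb11, the bile salt export pump, had 9.63%, 0%, 2.02% and 0.712% in dnTCF4 libraries 1 to 4 and 0%, 0.204%, 18.3% and 7.61% in control libraries 1 to 4. Esrp1 was closest to Slc47a1 (0.436), Cfap99 (0.545) and Gm11837 (0.551), Ovol1 to Crtac1 (0.265), Camsap3 (0.294) and Sema6b (0.316), and Ovol2 to Col20a1 (0.359), Gm8909 (0.369) and Asphd2 (0.371), each of 511 genes. Grhl3 was closest to Cdk15 (0.0749), Tfcp2l1 (0.0802) and Atp6v1c2 (0.0985), of 1071 genes. Tfcp2l1 belongs to the same wider family of CP2 and grainyhead factors.

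Among the relatives of the regulators, Tfcp2l1 was the only one of 4 with a peak, covered to 2.76% in dnTCF4 1 and to 3.26% and 0.265% in control 3 and control 4. Tfcp2, Ubp1 and Ovol3 had none in any library. None of 6 repressors of epithelial genes (Zeb1, Zeb2, Snai1, Snai2, Twist1 and Twist2) and none of 3 splicing regulators active in mesenchymal cells (Rbfox2, Mbnl1 and Qki) had a peak in any library, beside 21.4% of all protein-coding genes with a peak in at least 1. The 6 genes with exons controlled by ESRP proteins, namely Fgfr2, Cd44, Ctnnd1, Enah, Arhgef11 and Scrib, also had none.

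The other epithelial lists are set beside the 21.4% of all protein-coding genes that had a peak in at least 1 library. Of 14 junction and adhesion genes, 8 had a peak in at least 1 library, with 7, 1, 1 and 1 in dnTCF4 libraries 1 to 4 and 1, 1, 7 and 5 in control libraries 1 to 4. Only 1 of the 14, Epcam, had peaks in at least 2 dnTCF4 and 2 control libraries, which 5.02% of all genes did. Epcam, an adhesion protein, had one in all 8 libraries, covering 37.7%, 2.97%, 16.6% and 16.9% in dnTCF4 libraries 1 to 4 and 1.14%, 1.22%, 44.3% and 23.8% in control libraries 1 to 4. Dsp (desmoplakin), Ocln (occludin) and Cdh1 (E-cadherin) were each marked in 1 dnTCF4 and 2 control libraries. Cldn3, Cldn4, Marveld2, Lsr, Cgn and Pkp3 had no peak. Of 7 trafficking and protease genes, 5 had a peak, led by the protease inhibitor gene Spint1, in 3 dnTCF4 and 2 control libraries, Lad1 in 2 of each, the membrane protease gene St14 in 1 and 2, and Spint2 in 1 and 0, while Rab25 and Prss8 had no peak. Of 7 other epithelial transcription factors, Ehf was marked in 3 libraries of each group, Elf5 in 2 of each and Gata3 in 1 dnTCF4 and 2 control libraries, and Elf3, Klf5, Trp63 and Foxa1 had no peak. Ehf was covered to 39.9% in dnTCF4 1 and 56.6% in control 3, more than any of the 7 regulators.

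Marker genes of cell types gave a mixed picture. Of 6 keratin genes, Krt5, Krt14 and Krt19 had a peak (in 0, 1 and 1 dnTCF4 and 2, 1 and 0 control libraries), and Krt7, Krt8 and Krt18 had none. None of 6 mesenchymal markers (Vim, Fn1, Cdh2, Col1a1, Col1a2 and Sparc) had a peak in any library. Of 6 leukocyte and endothelial markers, Kdr was marked in 3 libraries of each group, Cd3e in 2 of each, and Ptprc in 1 dnTCF4 and 2 control libraries, while Cd68, Pecam1 and Cdh5 had no peak. Of all protein-coding genes, 21.4% had a peak in at least 1 library, so the lack of a peak at all 6 mesenchymal markers is not far from that share. A peak at a marker gene does not measure its expression.

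**Figure D5:**
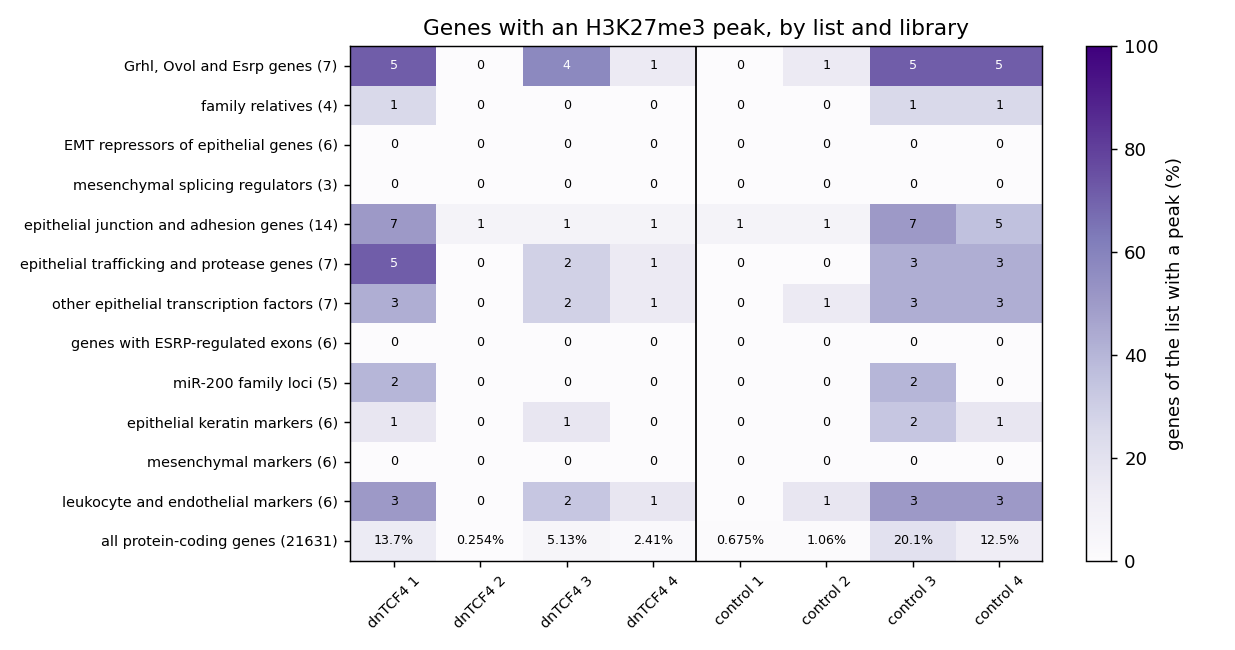
Number of genes with an H3K27me3 peak in their window, by gene list (rows, with the number of genes) and library (columns, dnTCF4 left of control), shaded by the percentage of the list from 0 to 100; the last row gives the percentage of all protein-coding genes. The regulators reach 5 of 7 in dnTCF4 1, control 3 and control 4, and the EMT repressors, mesenchymal splicing regulators, genes with ESRP-regulated exons and mesenchymal markers have 0 in every library.

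The miR-200 microRNAs, which target Zeb1 and Zeb2 transcripts, come from a cluster on chromosome 4 and another on chromosome 6. A single peak on chromosome 4 reached the windows of 2 of the 5 loci, Mir200b and Mir200a, whose mature 3p sequences (RefSeq, GRCm38.p6) are shown because their seeds, bases 2 to 8 in capitals, differ.
mmu-miR-200b-3p: uAAUACUGccugguaaugauga
mmu-miR-200a-3p: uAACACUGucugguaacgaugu
The peak was 693 bp wide in dnTCF4 1, at chr4:156056195-156056887, and 821 bp wide in control 3, at chr4:156056150-156056970, with fold enrichments of 3.66 and 3.19. It began 445 and 400 bp above the cluster. The window of Mir429, whose microRNA shares the seed of miR-200b, held no peak, and Mir200c and Mir141 on chromosome 6 had no peak in any library.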

How the data were processed

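The deposited data used here are 8 H3K27me3 peak lists of 9 columns without header, 1 per library. The submitters' processing notes name mm10, the peak caller MACS2 2.1.2, the aligner Bowtie2 2.3.4.1 and, for trimming and file handling, cutadapt, Trim Galore, bedtools 2.28.0, SAMtools 1.2 and Picard 2.20.2. No options were given. Per the labels' protocols IgG precipitates served as input, but its use in peak calling is not stated. The deposited fold enrichment (a ratio over background), score and −log10 p and −log10 q values are the authors' own per peak and were used within each list alone. The deposited score equalled 10 times −log10 q truncated to a whole number for 106378 of 106385 peaks, and −log10 q was at least 1.01.

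Gene positions came from RefSeq (GRCm38.p6), which gives no strand outside the promoter table. With Python 3.11.15, numpy and scipy, peaks overlapping a window by at least 1 base were counted, covered bases summed, and groups compared by two-sided exact permutation and Fisher's exact tests over all protein-coding genes with a peak, with Benjamini-Hochberg adjustment. Code was checked on simulated data. Members and lists were chosen with earlier results of these data known. Named genes are all 7 regulators, their nearest protein-coding neighbours, up to 4 genes per other list marked in the most libraries, and the 3 genes most like each regulator marked in at least 3 libraries. Unmarked list members are named besides.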

Additional observations from a re-analysis of the deposited data

Results flagged for a closer look

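Of 10 sets of 4 libraries with any covered share above 0 (5 genes in 2 groups), 3 held a library far from the other 3, its gap to the nearest, as a part of the whole range, exceeding Dixon's 95% critical value. Chance flags about 1 in 20 such sets, and a share that is 0 in most libraries of a group meets this condition easily. Esrp1 was covered to 8.53% in dnTCF4 1, and the next dnTCF4 library had 0.432%. Grhl3 was covered to 2.80% in dnTCF4 1 and to 0% in the other dnTCF4 libraries. Grhl3 was covered to 3.59% in control 3, and the next control library had 0.529%. In all 3 sets the library apart was the longest list of its group.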

How the results depend on the processing

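No gene, among the 7 or elsewhere, passed an adjusted p under 0.05 in either test under any of 18 alternatives, 2 of them chosen after seeing the data. The smallest adjusted p over all genes was 0.395. Of these alternatives, 3 (equal lists, 5 libraries and replicate block) were too small to reach 0.05. The main tests could not reach it either, for the reason given with them, and the other alternatives allow the same smallest p of 0.0286. The direction of the differences was not stable at any of the 5 marked genes. The Ovol2 difference in covered share turned to 0.162 percentage points without the extension, 0.180 with 10 kb, 0.00755 with lists of equal length and 0.229 after centring each library, and that of Grhl2 to 1.14 with equal lists and of Grhl3 to 0.173 after centring. By rank within the library the differences were 0.873 (Grhl2), 0.929 (Ovol1), 2.32 (Ovol2), 0.497 (Esrp1) and -9.26 (Grhl3) percentile points. Leaving out 1 library at a time gave -4.62 to 0.764 percentage points for Grhl2, -5.47 to 1.02 for Esrp1, -1.27 to 0.610 for Ovol2, -1.03 to 0.525 for Grhl3 and -3.13 to -0.0934 for Ovol1. With only the 5 libraries of at least 1000 peaks, chosen after seeing the data, the differences were -7.41 (Grhl2), -8.25 (Esrp1), -4.92 (Ovol1), -1.71 (Ovol2) and -1.13 (Grhl3), with exact permutation p from 0.1 to 0.5 where the smallest possible was 0.1. The cause of these shifts was not tested. With −log10 q of at least 3, the marked members numbered 2, 0, 0 and 0 in dnTCF4 libraries 1 to 4 and 0, 0, 3 and 1 in control libraries 1 to 4. With at least 500 bases covered there were 2 in dnTCF4 3 and 0 in control 2. With lists of equal length there were 3 in dnTCF4 1, 2 in dnTCF4 3, 3 in control 3 and 2 in control 4. Genes with a peak in any library used numbered 664, 3695 and 1332 under these settings in turn, against 4626 in the main one. The share of all genes in each library under them was not computed, so these member counts have no background. With the replicate number as a block, the exact sign-flip p over 16 patterns was 0.625 for Grhl2, 0.75 for Esrp1 and Grhl3, 0.5 for Ovol1 and 1 for Ovol2. Deviations of same-numbered libraries had correlations of -0.774, 0.765, -0.248 and -0.502 over 4626 genes. Libraries of different number reached similar values, as 0.760 for dnTCF4 2 with control 1, both short lists. The value was 0.696 for dnTCF4 1 with control 3, both long lists. Whether same-numbered libraries shared a culture or batch was not tested. The smallest p the sign-flip test allows is 0.125, so it could make no call. Unknown depth limits all counts of peaks.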
